A study of Mus musculus with 10 samples.

Results

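The genes described here are 7 transcripts of the Langerhans cell and of the growth factor axis that sustains it: Cd207, Epcam, Ly75, Itgax, Csf1r, Csf1 and Il34. They were taken by gene symbol from a table of 55414 mouse genes, and each symbol matched 1 row. All 7 passed the filter on low counts, which kept 14062 genes, and the lowest count of any of them in any library was 31. RNA came from epithelium peeled with the protease Dispase from mouse gingiva, the gum around the teeth. There were 5 libraries from the buccal side, facing the cheek, and 5 from the palatal side, facing the palate. The labels name the tissue side and no strain, age, sex, treatment or microbial status, and the series' design text on pooled germ-free and SPF mice names a comparison not analysed here. Since no label ties the libraries to separate animals, a p-value here reflects the spread between libraries alone, and that spread may be technical.

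Langerhans cells are the resident phagocytes and antigen-presenting cells of stratified epithelia, including the epidermis and the oral mucosa. They carry langerin, the C-type lectin encoded by Cd207, and depend for their upkeep on signalling through the receptor tyrosine kinase Csf1r. In the epidermis its main ligand is interleukin 34, made by keratinocytes, while Csf1, the other ligand, sustains many tissue macrophages.

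Total counts ran from 29317011 to 37234192 per buccal library and from 25868777 to 35583168 per palatal library. Levels are given in CPM, counts relative to a library total that is scaled by TMM, a method that sets libraries to a common scale from the bulk of their genes. Keratinocyte markers dominated both sides, with 8 of 8 detected and a summed level of 133506 to 152428 CPM in buccal and 94616 to 103482 CPM in palatal libraries. The palatal against buccal comparison was made with edgeR's quasi-likelihood test over all 14062 genes, with Benjamini-Hochberg adjustment. By that test 38.9% of all genes passed a false discovery rate of 0.05, 20.3% lower and 18.7% higher in palatal. These shares are the background for every count of listed genes given below. The 5 libraries of one side did not overlap the 5 of the other for 28.3% of all genes, and for 14.7% palatal lay wholly below buccal.

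Each of the 7 genes was lower in palatal epithelium, and for each the ranges of the sides did not overlap. These counts stand against the backgrounds of 20.3% and 14.7% just given. The genes were proposed with results of these data known, so their shared direction is a description. Il34 differed most, 5.81-fold, followed by Cd207, 4.31-fold, Ly75, 3.87-fold, Itgax, 3.62-fold, and Csf1r, 2.48-fold. Csf1 and Epcam differed least, 1.75-fold and 1.69-fold. In such bulk RNA, fewer cells of a type and less transcript per cell cannot be told apart.

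Promoter windows are shown for 3 Langerhans cell genes that were lower by similar factors, Cd207, Itgax and Ly75, so that their sequences can be set beside their levels. The 250 bases before the annotated start were read on the gene's strand, 5′ to 3′, from RefSeq's GRCm38.p6 table. Windows were read from it for 5 of the 7 genes. Not every chromosome was read, so that table may hold more of them. Its build differs from the GRCm39 build named for the counts, so it was used for sequence only. Capitals mark matches, on either strand, to 4 sets of letters. These were TGANTCA for AP-1 factors, AGGAAGT for the ETS factors that include PU.1, TGTGGT for the Runx factors, and the core promoter letters TATAAA. No 2 matches overlapped in these windows.
Cd207, chr6:83677858-83678107, minus strand: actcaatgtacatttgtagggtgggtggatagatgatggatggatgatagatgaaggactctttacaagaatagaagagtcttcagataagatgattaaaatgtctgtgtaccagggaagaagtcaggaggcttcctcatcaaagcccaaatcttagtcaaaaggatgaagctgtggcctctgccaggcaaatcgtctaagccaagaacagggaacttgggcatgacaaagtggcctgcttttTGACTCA
Itgax, chr7:128129300-128129549, plus strand: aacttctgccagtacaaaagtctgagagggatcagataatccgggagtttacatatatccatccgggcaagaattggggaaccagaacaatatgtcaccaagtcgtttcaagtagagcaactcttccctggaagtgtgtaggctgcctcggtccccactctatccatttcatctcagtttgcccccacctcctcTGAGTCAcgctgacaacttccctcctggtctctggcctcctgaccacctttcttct
Ly75, chr2:60383274-60383523, minus strand: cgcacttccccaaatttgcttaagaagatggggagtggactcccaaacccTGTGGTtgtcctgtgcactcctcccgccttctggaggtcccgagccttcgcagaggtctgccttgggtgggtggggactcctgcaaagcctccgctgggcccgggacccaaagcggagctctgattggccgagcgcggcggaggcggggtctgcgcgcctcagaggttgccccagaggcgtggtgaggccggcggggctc
The Cd207 window held TGACTCA at bases 7 to 1 before the start, and the Itgax window held TGAGTCA at bases 56 to 50 before it. TGANTCA occurred in 6.7% of 32851 promoter windows of that length. The Ly75 window held TGTGGT at bases 200 to 195, a match present in 14.0% of windows. AGGAAGT and TATAAA, present in 7.7% and 12.4% of windows, had no match in these 3. The windows also differed in base composition, with 43.6% G and C for Cd207, 50.0% for Itgax and 66.8% for Ly75. The windows of Epcam and Csf1 held none of these letters. A match is a description of the letters and does not show a bound site.

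Cd207 (ENSMUSG00000034783) encodes langerin, which captures glycans and forms the Birbeck granules that mark Langerhans cells. Its level was 7.69, 9.10, 5.51, 7.81 and 7.69 CPM in buccal libraries 1 to 5. In palatal libraries 1 to 5 it was 1.56, 1.66, 1.92, 1.43 and 2.17 CPM. The lowest buccal library stood 2.54-fold above the highest palatal one, so the groups were well apart. The log2 fold change, palatal minus buccal, was -2.11 ± 0.15 (SE, n = 5 per side; edgeR adjusted p = 5.25e-08). Palatal Cd207 rested on 263 counts over 5 libraries, where counting error alone gives a coefficient of variation of 13.8% per library against 16.8% observed. In buccal libraries the same values were 6.45% and 17.1%, so there the spread was well above counting error.

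Itgax (ENSMUSG00000030789) encodes CD11c, the integrin alpha chain used to mark dendritic cells and also carried by some macrophages. Buccal libraries 1 to 5 had 5.57, 8.74, 4.74, 4.66 and 4.74 CPM. Palatal libraries 1 to 5 had 1.46, 1.76, 1.52, 1.23 and 1.84 CPM. Buccal library 2 stood high and the other 4 buccal libraries lay close together, yet all lay above every palatal library. Its log2 fold change was -1.86 ± 0.19 (SE, n = 5; edgeR adjusted p = 2.49e-06), and -1.65 without buccal library 2.

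Ly75 (ENSMUSG00000026980) encodes DEC-205, an endocytic receptor of dendritic and Langerhans cells that some epithelia also make. Its buccal levels were 7.53, 13.2, 7.28, 5.63 and 6.07 CPM in libraries 1 to 5. Its palatal levels were 2.12, 2.52, 1.97, 1.39 and 2.17 CPM. Library 2 was again the highest buccal library, and the sides did not overlap. The log2 fold change was -1.95 ± 0.23 (SE, n = 5; edgeR adjusted p = 1.64e-05), and -1.70 without buccal library 2.

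Epcam (ENSMUSG00000045394), a cell adhesion molecule of Langerhans cells, is made by many epithelial cells as well, so it does not mark Langerhans cells alone in this tissue. Buccal libraries had 53.3, 51.4, 48.6, 44.1 and 44.4 CPM. Palatal libraries had 24.7, 31.8, 24.5, 31.9 and 30.6 CPM. Its spread was the smallest of the 7 in buccal libraries, with a coefficient of variation of 8.51%, and the lowest buccal library was 1.38-fold above the highest palatal one. This is a log2 fold change of -0.75 ± 0.09 (SE, n = 5; edgeR adjusted p = 1.35e-05).

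**Figure D1:**
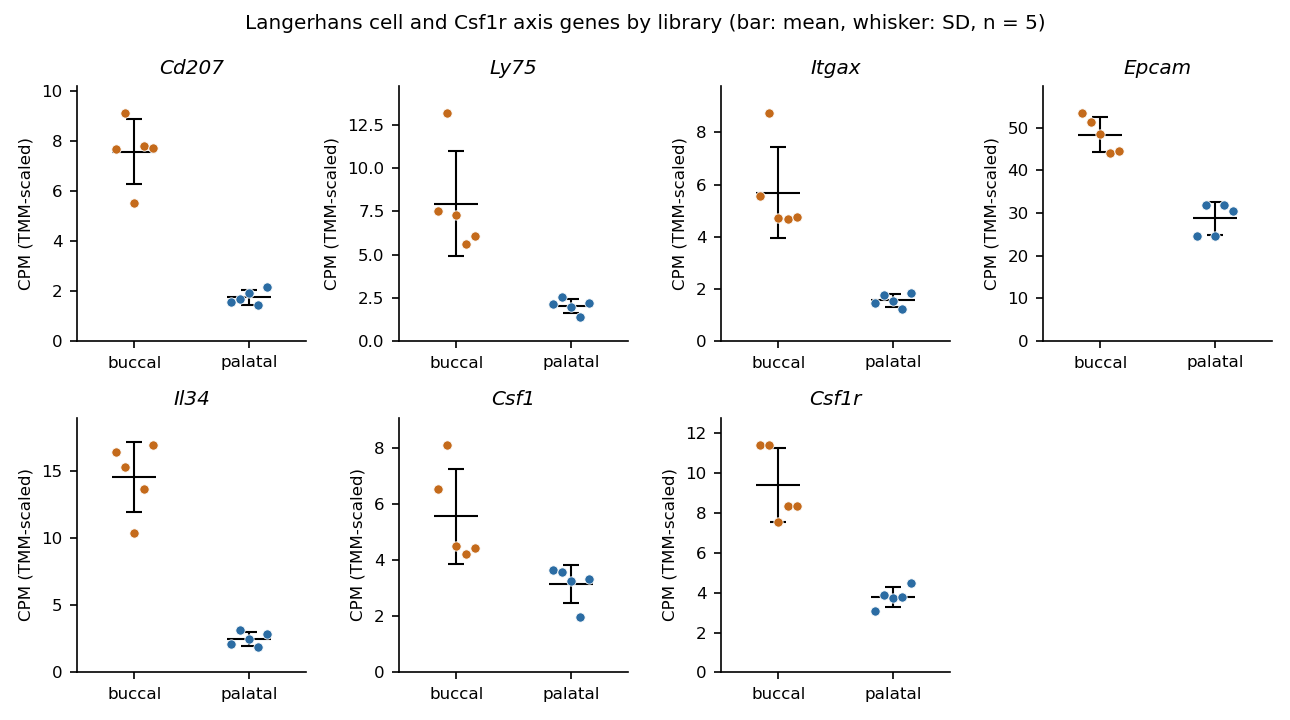
TMM-scaled CPM of the 7 genes in each buccal (orange) and palatal (blue) library, each vertical axis starting at 0, with the mean (bar) and SD (whisker) of 5 libraries. Every palatal point lies below every buccal point of the same gene; the smallest gap is that of Csf1, whose lowest buccal library is 1.16-fold above the highest palatal one.

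Il34 (ENSMUSG00000031750) encodes the ligand that keratinocytes use to sustain Langerhans cells. Its buccal levels were 16.4, 15.3, 10.4, 13.6 and 16.9 CPM in libraries 1 to 5. Its palatal levels were 2.09, 3.13, 2.48, 1.87 and 2.89 CPM. The gap between the sides was the widest of the 7 genes, with the lowest buccal library 3.33-fold above the highest palatal one. The log2 fold change was -2.54 ± 0.16 (SE, n = 5; edgeR adjusted p = 1.50e-08), the 54th lowest of the 14062 genes.

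Csf1 (ENSMUSG00000014599) encodes colony stimulating factor 1, made by fibroblasts, endothelial cells and epithelial cells among others. Buccal libraries had 6.53, 8.11, 4.51, 4.22 and 4.42 CPM. Palatal libraries had 3.64, 3.57, 3.27, 1.99 and 3.32 CPM. Buccal libraries 1 and 2 stood high, and the other 3 lay only a little above the palatal ones. For Csf1 the log2 fold change was -0.81 ± 0.20 (SE, n = 5; edgeR adjusted p = 0.00557), and without buccal library 2 it was -0.63.

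Csf1r (ENSMUSG00000024621), the receptor for both ligands, is made by Langerhans cells, macrophages and monocytes. Its buccal levels were 11.4, 11.4, 7.54, 8.36 and 8.33 CPM. Its palatal levels were 3.08, 3.89, 3.75, 3.78 and 4.47 CPM. Buccal libraries 1 and 2 were the highest, and the 5 palatal libraries were tight, with a coefficient of variation of 13.1%. For Csf1r it was -1.31 ± 0.14 (SE, n = 5; edgeR adjusted p = 3.46e-06).

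Levels of different genes can be set side by side only per length, here as CPM per kilobase of the union of exons in the GENCODE M21 annotation, which covers all isoforms and so lowers the level of genes with long alternative exons. On this scale Epcam was the highest in both sides, at 22.04 ± 1.87 in buccal and 13.1 ± 1.72 in palatal (SD, n = 5). Il34 followed at 7.42 ± 1.34 in buccal and 1.27 ± 0.27 in palatal, then Cd207 at 4.97 ± 0.85 and 1.15 ± 0.19. The ranges of Il34 and Cd207 overlapped within each side, although Il34 was the higher in 5 of 5 libraries of each. Csf1r came next, at 1.63 ± 0.32 in buccal and 0.66 ± 0.09 in palatal. Below it the order changed with side. In buccal libraries Itgax, Ly75 and Csf1 (1.18, 1.15 and 1.05) overlapped one another. In palatal libraries Csf1 at 0.60 overlapped Csf1r, and lay above Itgax at 0.33 and Ly75 at 0.29 in each of the 5 libraries.

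The 2 ligands together reached 6.17 to 9.60 CPM per kilobase in buccal and 1.33 to 2.27 in palatal libraries. Il34 made up 83.5% to 91.2% of that sum in buccal and 60.7% to 71.7% in palatal libraries, so it was the larger part in all 10. These shares were computed after the values were seen and are given with no test of their own.

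**Figure D2:**
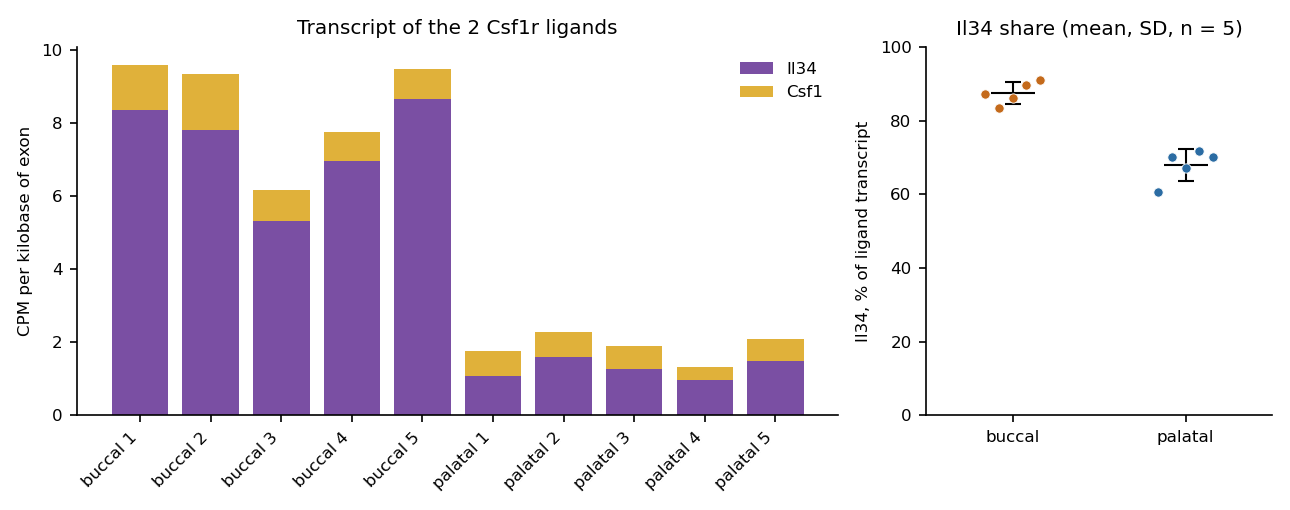
Left, Il34 (purple) and Csf1 (yellow) transcript per library in CPM per kilobase of exon, stacked from 0; right, the Il34 part of that sum in percent, with mean and SD of 5 libraries per side. The buccal stacks reach 6.17 to 9.60 and the palatal ones 1.33 to 2.27, and the Il34 share is 83.5% to 91.2% against 60.7% to 71.7%.

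Whether these genes differed between the sides by the same factor was asked with the log2 ratio of a pair of genes within each library, in which scaling cancels; gene length cancels in the difference of a ratio between the sides, not in the ratio itself. Exact two-sided permutation tests over all assignments of 5 and 5 were adjusted over the 8 ratios. The smallest unadjusted p possible is 0.00794. These ratios were chosen with results of these data known. Their p-values therefore describe the separation of the libraries and are no independent support for the order of the fold changes. Il34 differed more than Csf1: their log2 ratio went from 1.40 ± 0.40 in buccal to -0.33 ± 0.28 in palatal libraries (SD, n = 5; exact permutation adjusted p = 0.0212). The sign of this ratio turned between the sides, which is not a statement on molecules, since Csf1 has the longer exons. Il34 also differed more than its receptor, with Csf1r/Il34 moving from -0.62 ± 0.25 to 0.61 ± 0.24 (exact permutation adjusted p = 0.0212, n = 5).

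Cd207 differed more than Csf1r. Their log2 ratio was -0.31 ± 0.21 in buccal and -1.10 ± 0.18 in palatal libraries, with no overlap (SD, n = 5; exact permutation adjusted p = 0.0212). Cd207 differed less than Il34, by 0.45 in their log2 ratio, from -0.93 ± 0.17 to -0.49 ± 0.23 (exact permutation adjusted p = 0.0476, n = 5). Here the ranges overlapped, since palatal library 2 at -0.89 lay among the buccal values. Leaving out any 1 of buccal libraries 1, 3 and 5 or palatal libraries 1, 3, 4 and 5 took this ratio above the threshold, to exact permutation adjusted p of 0.0508 to 0.0794.

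Ratios to Ptprc, the pan-leukocyte CD45 gene, set the myeloid genes against all leukocytes. Ptprc itself was 7.24 to 12.4 CPM in buccal and 2.34 to 3.26 CPM in palatal libraries. Cd207/Ptprc was -0.19 ± 0.31 in buccal and -0.66 ± 0.36 in palatal (SD, n = 5; exact permutation adjusted p = 0.0889). Itgax/Ptprc differed by -0.20 and Csf1r/Ptprc by 0.31 (exact permutation adjusted p = 0.214 and 0.145, n = 5). Cd207/Itgax differed by -0.28 (exact permutation adjusted p = 0.145, n = 5). None of these 4 differences passed the threshold with all 10 libraries, which does not show that the ratios were alike. Without buccal library 1, the highest buccal value at 0.65, Csf1r/Ptprc differed by 0.44 and passed (exact permutation adjusted p = 0.0476).

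**Figure D3:**
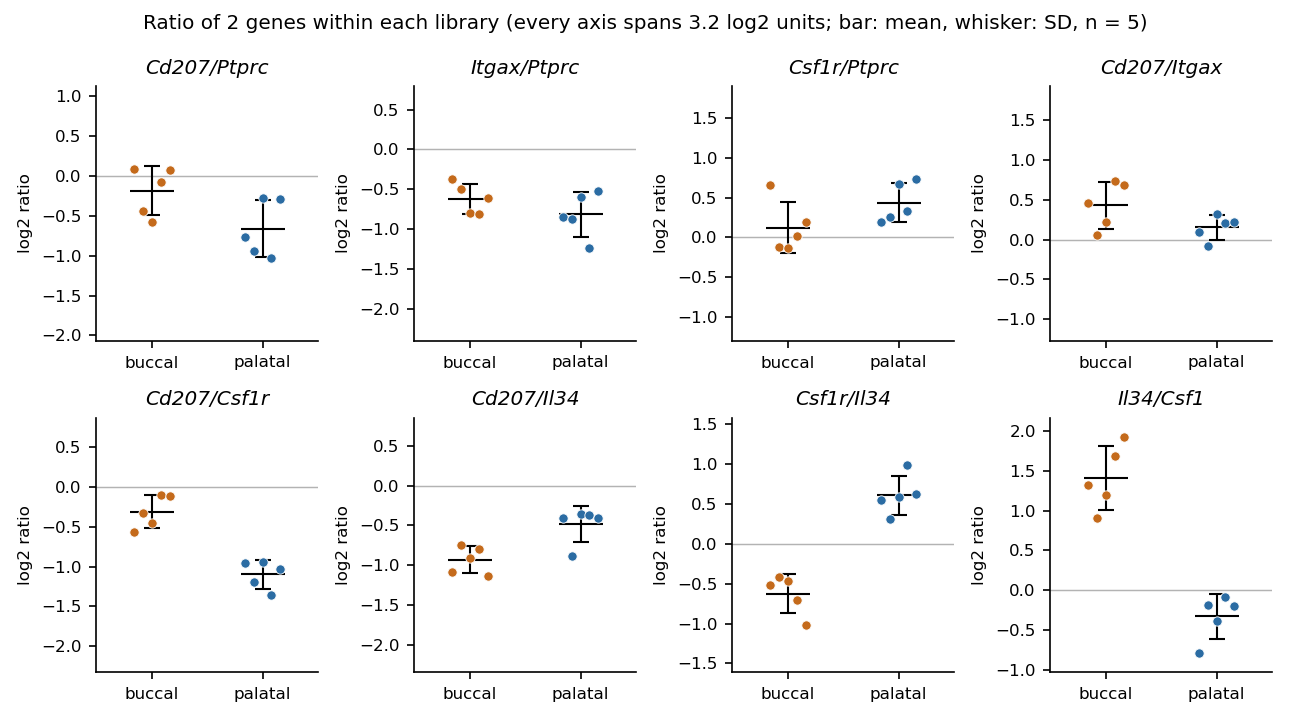
Log2 ratio of 2 genes' CPM within each library, 1 panel per ratio with axes of equal span, buccal in orange and palatal in blue, with mean and SD of 5 libraries per side. Il34/Csf1, Csf1r/Il34 and Cd207/Csf1r separate the sides without overlap, while the 3 ratios to Ptprc and Cd207/Itgax overlap.

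Genes of the Csf1r pathway were mostly lower in palatal. Of 13 listed genes, the 3 members included, 12 were tested: 9 were lower, 1 higher and 2 not past the threshold. Among all genes tested 20.3% were lower and 18.7% higher. The median log2 fold change was -1.08 against 0.01 for all genes tested. The 3 members are among the 9 lower and were chosen with results known, so the count and the median rest partly on them. Trem2 was not tested, with 11 counts over all libraries. Among those lower were the adaptor Tyrobp (-1.58 ± 0.19), the Src family kinase Lyn (-1.10 ± 0.18), the inositol phosphatase Inpp5d (-1.48 ± 0.19) and the phospholipase Plcg2 (-1.06 ± 0.07). These genes act below many receptors of myeloid cells and are not particular to Csf1r. Ptprz1, a phosphatase reported as another receptor for interleukin 34, was higher by 0.48 ± 0.13 (SE; edgeR adjusted p = 0.0084, n = 5). Sdc1, a proteoglycan that also binds it, stood at 0.16 ± 0.08 (edgeR adjusted p = 0.13, n = 5).

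Surface genes of Langerhans cells divided. Of 10 listed and tested, the 4 members included, 5 were lower and 3 higher, with a median of -0.36. Among all genes tested 20.3% were lower and 18.7% higher. The members were chosen with results known, so the count of 5 and the median rest largely on that choice. Apart from them only Adgre1 was lower, while 3 genes were higher. Besides the 4 members, Adgre1, which encodes F4/80, was lower by a log2 fold change of -1.25 ± 0.30 at mean levels of 0.87 and 0.37 CPM. Cd24a and Sirpa, which keratinocytes and other cells make as well, were higher by 0.75 ± 0.08 and 0.79 ± 0.09. Itgam, which encodes the CD11b integrin chain, was higher by 2.70 ± 0.18 (SE, n = 5; edgeR adjusted p = 3.11e-08). Itgam stood at 1.16 to 2.46 CPM in buccal and 8.58 to 12.5 CPM in palatal libraries. Cdh1, the E-cadherin by which Langerhans cells adhere to keratinocytes, stood at 0.03 ± 0.06 (edgeR adjusted p = 0.721, n = 5).

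Transcription factors that Langerhans cells or their relatives use also divided. Of 14 regulators listed 12 were tested, with 7 lower and 2 higher, beside 20.3% lower and 18.7% higher among all genes tested. Their median was -0.36 on the log2 scale. Spi1, the myeloid factor PU.1, had 2.74 ± 0.75 CPM in buccal and 0.48 ± 0.13 CPM in palatal libraries (SD, n = 5), a log2 fold change of -2.51 ± 0.23 (SE). Irf8 (-2.20 ± 0.47), Ikzf1 (-1.81 ± 0.20), Zbtb46 (-1.90 ± 0.33) and Runx3 (-1.15 ± 0.23) were lower as well. Cebpb (-0.33 ± 0.12) and Lamtor2 (-0.25 ± 0.08) were lower by little and overlapped between the sides. Relb (-0.38 ± 0.17), Ahr (0.19 ± 0.11) and Cebpa (-0.06 ± 0.16) did not pass the threshold. Zbtb46 had 77 counts over the buccal and 19 over the palatal libraries and passed the filter through the buccal side alone, so the count of 7 does not stand for the whole list. Id2, an inhibitor of basic helix-loop-helix factors that Langerhans cells require, was higher by 1.16 ± 0.07, and Klf4, which differentiating keratinocytes also express, by 0.61 ± 0.13. Irf4 and Batf3 did not pass the filter, with 105 and 10 counts over all libraries.

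TGF-beta signalling keeps Langerhans cells in the epithelium, and BMP signalling takes part in their differentiation. Of 13 such genes 2 were lower and 6 higher in palatal, beside 20.3% lower and 18.7% higher among all genes tested. The lower count is not above that share. The median over the 13 was 0.31 on the log2 scale, against 0.01 for all genes tested. Bmp7, a BMP ligand of epithelia, was higher by 2.03 ± 0.07, Tgfb3 by 1.90 ± 0.21 and Itgb6, the integrin chain that activates latent TGF-beta, by 0.88 ± 0.11. Tgfb1 stood at -0.18 ± 0.13 (edgeR adjusted p = 0.319, n = 5). Axl, a TAM receptor, was lower by a log2 fold change of -0.79 ± 0.07, and Acvr2a, an activin receptor, by -0.61 ± 0.08.

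**Figure D4:**
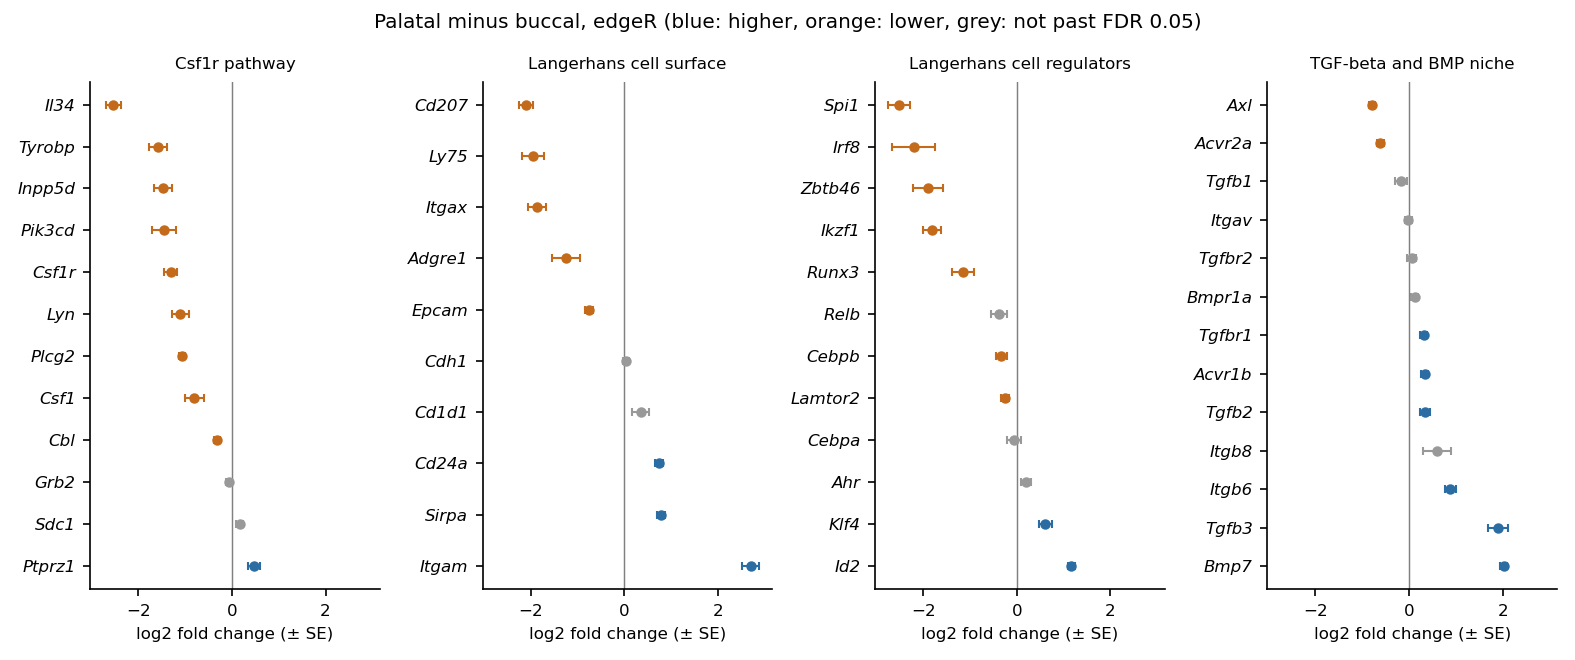
Log2 fold change, palatal minus buccal, with SE (n = 5 per side) for each tested gene of 4 lists; blue is higher, orange lower and grey not past an edgeR false discovery rate of 0.05. In the Csf1r pathway 9 of 12 genes, members included, passed the threshold on the lower side. In the TGF-beta and BMP list 6 of 13 passed it on the higher side. The shares over all genes tested were 20.3% lower and 18.7% higher.

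Of 11 other dendritic cell growth factors and receptors, 8 were tested, with 3 lower and 2 higher, beside 20.3% lower and 18.7% higher among all genes tested; counts this small tell nothing particular of the list. Csf2rb, the shared chain of the GM-CSF receptor, was lower by a log2 fold change of -1.78 ± 0.18, Tnfrsf11a (RANK) by -1.08 ± 0.16 and Flt3 by -1.11 ± 0.27. Csf2, Tslp and Tnfsf11 did not pass the filter, with 21, 10 and 14 counts over all libraries. Of 12 traffic genes 8 were tested, with 5 lower and 1 higher, beside the same shares among all genes tested. Of those lower, Ccl2 and Ccr1 had palatal means of 0.28 CPM each and overlapped between the sides. They passed the filter through the buccal side alone, so the count of 5 does not stand for the whole list. Ccr2, the receptor that brings monocytes into tissue, was lower by -1.99 ± 0.28. Cxcl14, an epithelial chemokine, was higher by 0.60 ± 0.14, and Ccl20, the ligand of Ccr6, stood at 0.07 ± 0.25 at mean levels of 0.48 and 0.49 CPM.

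Antigen presentation genes were lower together: all 9 tested of 11 listed MHC class II genes, with log2 fold changes of -1.85 to -1.40. Among all genes tested 20.3% were lower. H2-Oa and H2-Ob were not tested, with 37 and 65 counts over all libraries, and overlapped between the sides. The summed level of the 11 listed genes was 222.6 to 403.7 CPM in buccal and 69.8 to 99.4 CPM in palatal libraries. Of 9 costimulation and maturation genes 6 were tested and 3 were lower. These were Cd86 (-2.07 ± 0.27), Fscn1 (-1.46 ± 0.20) and Cd274 (-1.90 ± 0.56), and Cd274 overlapped between the sides. Cd83 (-0.97 ± 0.39), Cd80 (-0.13 ± 0.21) and Il23a (0.41 ± 0.30) did not pass the threshold.

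Markers of other leukocytes moved with the Langerhans cell genes. All 5 pan-leukocyte markers were lower (median -1.83 on the log2 scale), at a summed level of 37.4 to 63.6 CPM in buccal and 10.8 to 16.1 CPM in palatal libraries. Of 15 macrophage markers 9 were tested and 7 were lower, and their sum went from 24.8 to 39.1 CPM down to 12.9 to 19.4 CPM. C1qa, of complement, had the largest difference among the 9 tested (-1.61 ± 0.33). Of those not tested, Cd163 had 8 counts over all libraries, and Folr2, a folate receptor of macrophages, had 12 in buccal and 38 in palatal, without overlap in CPM. Of 9 T cell markers 7 were tested, all lower, with a sum of 21.0 to 26.6 CPM in buccal and 14.4 to 17.3 CPM in palatal libraries, most of it from Cd5. The share of all genes tested that was lower is 20.3%. Genes this low can pass the filter through the buccal side alone, so these counts do not stand for whole lists.

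Some markers of conventional dendritic cells were near 0: Xcr1 and Clec9a had 26 and 5 counts over all 10 libraries, and Clec4a4 had 0. Of the 5 markers of the first conventional type 2 were tested, and they went opposite ways. Itgae, the CD103 integrin chain that T cells of epithelia carry too, was lower by a log2 fold change of -1.97 ± 0.14, at 4.27 against 1.09 CPM with no overlap. Cadm1, an adhesion molecule also made by other cells, was higher by 0.35 ± 0.08. The sum of the 5 overlapped between the sides (15.6 to 19.3 and 16.4 to 18.7 CPM), most of it from Cadm1. Of the 5 markers of the second type 1 was tested, Cd209a, with a log2 fold change of -0.78 ± 0.38 (edgeR adjusted p = 0.121, n = 5). It had 64 counts in buccal and 34 in palatal libraries, and Mgl2, which was not tested, had 81 and 23. Of 6 fibroblast markers 4 were tested and 1, Dcn, was higher, and the sum went from 6.79 to 12.9 CPM up to 70.1 to 89.1 CPM, nearly all Dcn. Col1a1 and Col3a1, the main fibrillar collagens of connective tissue, did not pass (-0.34 ± 0.30 and -0.07 ± 0.43). Of 5 endothelial markers 2 were tested and 1, Vwf, was lower, with sums of 4.54 to 8.18 and 3.03 to 7.93 CPM. Melanocyte markers were not tested in any of 5 cases, with sums of at most 0.59 CPM. The part of any of these cells in the difference of Csf1r, Itgax or Csf1 was not tested.

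**Figure D5:**
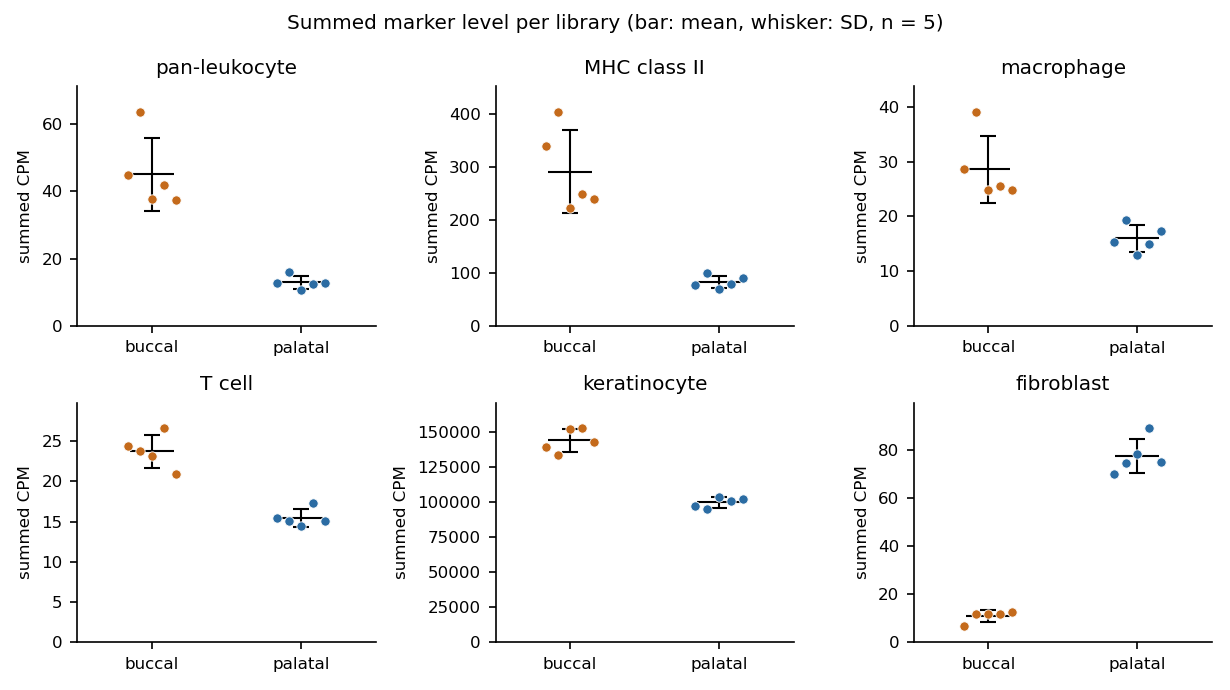
Summed CPM of 6 marker lists in each library, buccal in orange and palatal in blue, axes starting at 0, with mean and SD of 5 libraries per side. Pan-leukocyte, MHC class II, macrophage, T cell and keratinocyte sums lie lower in every palatal library, and the fibroblast sum lies higher. Buccal library 2 has the highest pan-leukocyte sum at 63.6 CPM.

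The genes closest to Cd207 and Il34 were sought by the root mean square difference of log2 CPM over the 10 libraries, after each gene was centred on its own mean. Among 11573 other genes with a mean of at least 1 CPM, the nearest to Cd207 were Alox5ap (0.17 log2 units), Adam19 (0.19), Csf2rb2 (0.20), B4galnt1 (0.22) and Tril (0.22). Alox5ap encodes the protein that presents arachidonic acid to 5-lipoxygenase. It stood at 1.87 to 2.99 CPM in buccal and 0.50 to 1.01 CPM in palatal libraries. Itgax was the 11th nearest and Il34 the 22nd, whereas Ptprc was the 105th, Csf1r the 167th and Epcam the 677th. Nearest to Il34 were Clec11a, a secreted growth factor (0.26), Irx5, a homeobox factor (0.26), Cd207 (0.29), Alox5, the 5-lipoxygenase gene itself (0.31), and Pax9, a paired box factor (0.32). Most of this likeness lies in the difference between the sides. Whether Cd207 follows Il34 from library to library within a side was not tested.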

How the data were processed

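Polyadenylated RNA of 5 buccal and 5 palatal gingival epithelium libraries was sequenced as single-end reads from stranded libraries, per the labels' protocols. For the steps to counts, HTSeq 2.01, TopHat2 2.1.1 and cutadapt 2.10 are listed with DESeq2 1.36.0 and build GRCm39, per the submitters' processing notes, which state neither role nor order. No source used here gives the strand setting or how ambiguous reads were treated. The table holds the authors' raw counts per gene, per the file headers, and the authors' deposited DESeq2-normalized signal, which in each library is the count over a constant. Rows without values in any library (6250) were dropped. It has 0 columns of other samples.

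Genes were kept by filterByExpr (minimum count 10), scaled by TMM and tested with edgeR 4.0.16 in R 4.3.3 (robust quasi-likelihood, two-sided, Benjamini-Hochberg, 0.05). Standard errors come from the fold change and its F statistic. Log2 CPM for ratios uses a prior count of 2. The test was checked on simulated counts. Exact permutation tests cover the 8 ratios.

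The members, lists, ratios, alternatives and naming rule were chosen with earlier results of these data known. The rule named the 7 members, listed genes by smallest p, and the 5 genes nearest to Cd207 and to Il34; predicted-gene names were left out. Some listed genes were named after their values were seen. Some genes are not reported here. Other settings tried were scaling by RLE, upper quartile or library total, no filter and at least 1 CPM in 5 libraries, DESeq2 1.42.0, limma-voom and limma-trend (limma 3.58.1; log2 of the deposited value plus 1), a prior count of 0.5, the replicate number as a block, and leaving out each library. Leaving out number 2 of both sides was added after seeing the data. Counting errors given cover counting only, because reads lack molecular identifiers.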

Additional observations from a re-analysis of the deposited data

Results flagged for a closer look

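Among 30 groups of 5 values (7 genes and 8 ratios on each side), 4 had a highest or lowest library far from the rest, by a gap test that chance passes in about 1 of 20 groups. Ly75 reached 13.2 CPM in buccal library 2, with the next buccal library at 7.53 CPM. Itgax reached 8.74 CPM in the same library, with the next at 5.57 CPM. That library also had the highest summed pan-leukocyte level. Csf1 fell to 1.99 CPM in palatal library 4, with the next at 3.27 CPM. The log2 ratio of Cd207 to Il34 was -0.89 in palatal library 2, with the next palatal value at -0.41.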

How the results depend on the processing

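All 7 genes kept their direction and their side of the threshold in all 20 alternatives; the largest adjusted p was 0.0159, for Csf1. The count of all genes called, 5474, lay between 4902 and 5679 in the alternatives. With the replicate number as a block, no call among the 7 genes changed and 5518 genes were called. Same-numbered libraries had deviations correlated at -0.02 to 0.33, and 3 of 5 buccal libraries correlated best with their own number. These values do not settle whether the numbers mark pairs. No label says so, and the main test does not take them as pairs. Paired sign-flip tests cannot give p below 0.0625, and with this replicate block the ratios Cd207/Csf1r (-0.79), Cd207/Il34 (0.45), Csf1r/Il34 (1.23) and Il34/Csf1 (-1.73) kept their values at an exact permutation adjusted p of 0.167. Without number 2 of both sides they were -0.76, 0.60, 1.36 and -1.89, at an exact permutation adjusted p of 0.0571; fewer libraries limit that p. Leaving out single libraries gave 0.40 to 0.55 for Cd207/Il34, and 0.24 to 0.44 for Csf1r/Ptprc, which passed without buccal library 1 (exact permutation adjusted p = 0.0476). With at least 1 CPM in 5 libraries 1 T cell marker was called, since fewer were tested. Leaving out single libraries gave 2 to 5 costimulation and maturation genes called, with 5 without buccal library 4 or 5. Depth limits the palatal values of Cd207, Ly75 and Itgax, at 235 to 308 counts over 5 libraries.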

Other observations

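The integrin chains that share the partner Itgb2 went different ways. Itgb2 was lower in palatal epithelium, with a log2 fold change of -1.15 ± 0.21 (SE, n = 5; edgeR adjusted p = 4.68e-04), at 3.04 to 6.60 CPM in buccal and 1.64 to 2.56 CPM in palatal libraries. Itgax and Itgal (-1.46 ± 0.22) were lower too, whereas Itgam stood 6.49-fold higher, at 10.6 against 1.63 CPM. Itgb2 was chosen after its values were seen.

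Kit, the stem cell factor receptor of mast cells and melanocytes, was higher in palatal epithelium by 1.03 ± 0.13 (SE, n = 5; edgeR adjusted p = 1.92e-05), at 8.84 against 4.35 CPM. The mast cell protease genes Cpa3, Mcpt4, Tpsb2 and Cma1 had 3 to 5 counts each over the 10 libraries, and the melanocyte genes Tyrp1, Mlana and Tyr had 0 to 2. Of the other melanocyte genes listed, Pmel had 49 counts in buccal and 39 in palatal libraries, and Dct 11 and 22. None of these 5 was tested.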
